A study of Homo sapiens with 3 samples.

Results

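Coenzyme Q (CoQ) synthesis is represented here by 9 genes of the pathway (PDSS1, PDSS2, COQ2, COQ3, COQ4, COQ5, COQ6, COQ7 and COQ9), together with AASDHPPT, which activates carrier proteins. The members were all single guide RNAs (sgRNAs) whose name begins with one of these symbols followed by an Ensembl gene identifier. This gave 10 of 20381 targeted genes and 93 of 189398 gene-targeting sgRNAs. The genes were chosen by pathway and symbol, but with the sgRNA ratios between the unsorted pools and in the sort of these same libraries in view, so every value below is a description and no member was tested. With 1 library per group there was no replicate spread to measure a difference by.

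The study was a pooled CRISPR knockout screen in K-562 cells, an established human leukaemia line, that looked for genes which restrain or sustain surface MHC class I. All 3 libraries came from Cas9-expressing K-562 cells infected at a multiplicity of 0.3 with the Bassik human knockout library and selected with puromycin (1 μg/mL for 72 h, from 48 h after infection). The HLA-B high sorted library held cells of the high screen, pulsed with 1 ng/mL interferon-γ 24 h before flow sorting and enriched for HLA-B on days 18 and 25. The high-screen control was the unsorted pool of that screen. The low-screen control was the unsorted pool of the low screen, whose sorts took place on days 7 and 15 with 25 ng/mL interferon-γ. The labels give neither the harvest day of each pool nor whether the pools were pulsed, and for the low-screen control they disagree on the antibody of its screen. Screen, time and interferon-γ dose cannot be told apart between the pools.

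CoQ is the lipid of the inner mitochondrial membrane that carries electrons from complexes I and II, and from several other dehydrogenases such as that of pyrimidine synthesis, to complex III. Its long isoprenoid tail is built by the PDSS1 and PDSS2 synthase and joined to a benzoate ring by COQ2, after which a membrane-bound assembly of COQ proteins modifies the ring. AASDHPPT is the enzyme that moves the phosphopantetheine arm of coenzyme A onto acyl carrier proteins, among them NDUFAB1 of mitochondria, which serves fatty acid and lipoate synthesis and sits in complex I. The libraries count sgRNAs in genomic DNA, so they report the relative abundance of each sgRNA and not the expression of any gene. They do not show whether the target gene was knocked out in the cells that carried an sgRNA.

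Reads matched to sgRNAs numbered 34266318 for the HLA-B high sort, 22562241 for its unsorted pool and 98426251 for the pool of the low screen. Of the 93 member sgRNAs, 63 (67.7%) had no read in the sorted library, 15 (16.1%) had none in the high-screen control and 6 (6.45%) had none in the low-screen control. Over all gene-targeting sgRNAs these shares were 50.8%, 2.28% and 6.6%. The sorted library was therefore sparse for most genes, while member sgRNAs were missing from the high-screen control more often than gene-targeting sgRNAs in general. Levels are given as CPM, the usual depth-scaled unit (reads divided by the matched total of the library and expressed per 1000000 reads), and a count of 0 allows up to 0.0876, 0.133 and 0.0305 CPM in the 3 libraries in the same order. Reads are PCR products without molecular identifiers, so these limits and the 95% intervals below cover counting error only.

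In summed reads AASDHPPT stood lowest of the members in the high-screen control. Its sgRNAs made up 0.992 CPM of the HLA-B high sorted library (exact 95% interval 0.687 to 1.39), 10.9 CPM of the high-screen control (9.58 to 12.3) and 40.6 CPM of the low-screen control (39.3 to 41.8). Among all genes the share with fewer reads than AASDHPPT was 3.39% in the high-screen control against 38.7% in the low-screen control. The median gene had 30.03 CPM in the sort, and 44.9 CPM (high screen) and 45.1 CPM (low screen) in the unsorted pools. Reads of 9 of the 10 members lay below the median gene in each unsorted pool, and of 7 of 10 in the sorted library. The exceptions were COQ9 in the high-screen control (55.98 CPM) and COQ6 in the low-screen control (57.0 CPM). Summed reads depend on how many sgRNAs a gene has, which was 7 for COQ9, 8 for COQ2, 9 for PDSS2 and COQ3 and 10 for the others.

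**Figure D1:**
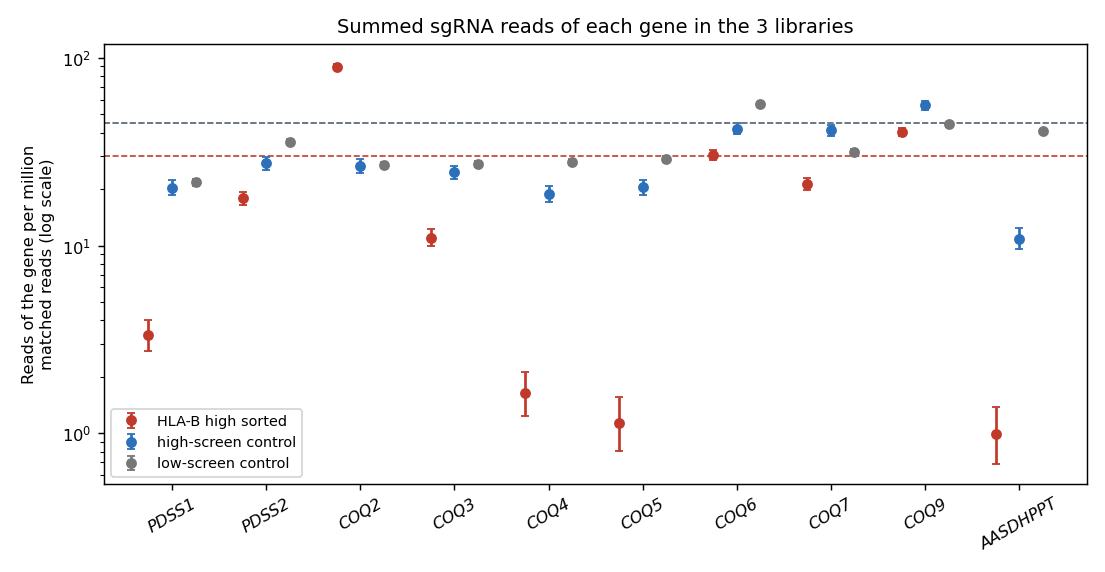
Reads summed over the sgRNAs of each gene, in CPM on a log scale, in the sort and in both unsorted pools. Bars are exact 95% counting intervals, often smaller than the point, and dashed lines mark the median over all genes (30.03 CPM in the sorted library, and 44.9 and 45.1 CPM, drawn almost on top of each other, in the 2 pools); AASDHPPT stood at 10.9 CPM in the high-screen control against 40.6 CPM in the low-screen control.

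The unsorted pools were compared first, since neither had passed an HLA sort. For each sgRNA the log2 ratio of the high-screen control to the low-screen control was taken after both were scaled to the smaller total, with a pseudocount of 1. It was kept where the mean scaled count was at least 10, which held for 84 of the 93 member sgRNAs. A gene was called lower at a median of -1 or less over its sgRNAs and higher at 1 or more, a 2-fold difference. Of the 10 members 3 were called lower (AASDHPPT, COQ5 and COQ2) and 0 higher. Of 19816 genes tested 4.29% were called lower and 3.42% higher. The median over the members was -0.32, against -0.03 over all genes, and 7 of the 10 medians lay below that of all genes. Of the calls over all genes 44.4% were higher, and 68.5% when ratios were centred on the safe-targeting sgRNAs, which cut sites with no annotated function. That centring raised the median of all genes to 0.12.

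Per sgRNA, 35 of the 84 (41.7%) were at -1 or less and 12 (14.3%) at 1 or more, against 23.2% and 21.6% of all gene-targeting sgRNAs and 24.7% and 18.2% of the safe-targeting sgRNAs. Without AASDHPPT the 9 CoQ genes had 27 of 75 sgRNAs (36.0%) at -1 or less and 12 (16.0%) at 1 or more. Member sgRNAs were more often absent from the high-screen control too, but these genes were chosen with the pool ratios in view. The shares that follow are descriptions and no separate support. Of 86 member sgRNAs with a scaled count of 10 or more in the low-screen control, 15 (17.4%) had no read in the high-screen control, against 2.07% of gene-targeting and 2.03% of safe-targeting sgRNAs. For the 9 CoQ genes alone this was 11 of 77 (14.3%). Here the minimum was set only on the low-screen control, the pool where these sgRNAs had more reads. Among sgRNAs kept by the minimum on the mean of both pools, 11 of 84 members (13.1%) were absent from the high-screen control, 7 of 75 (9.33%) without AASDHPPT, against 1.43% of gene-targeting sgRNAs. In the other direction 6 member sgRNAs had reads in the high-screen control against none in the low-screen control, 4 of PDSS1 and 1 each of PDSS2 and COQ3. These 6 were 6.45% of the 93 member sgRNAs, near the 6.43% of all gene-targeting sgRNAs with that pattern. This count had no minimum. Without one, 15 of the 93 (16.1%) were absent from the high-screen control, against 2.28% of gene-targeting sgRNAs.

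**Figure D2:**
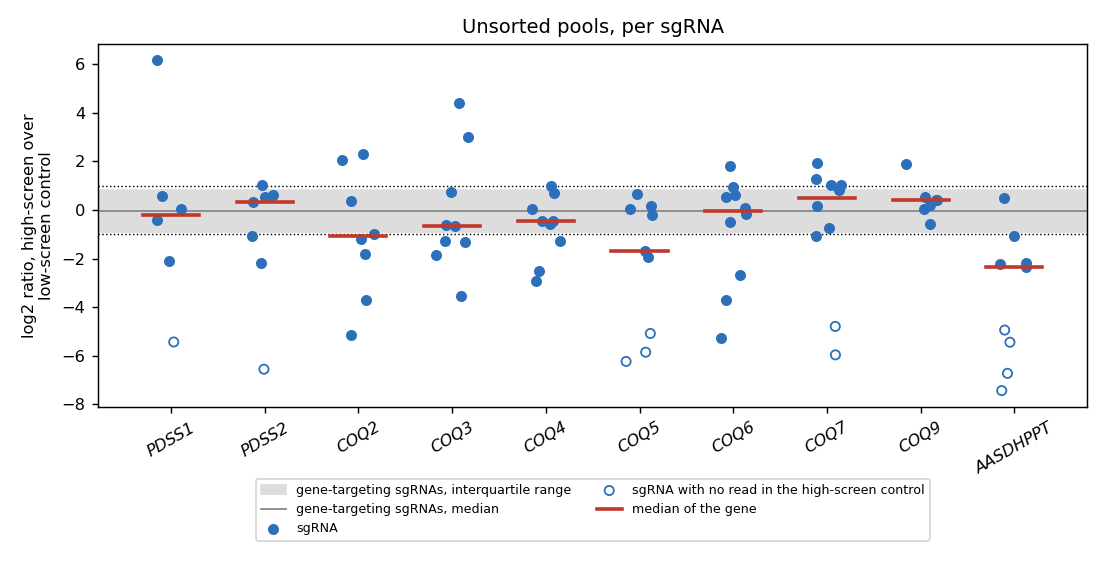
Log2 ratio of the high-screen control to the low-screen control for each member sgRNA with a mean scaled count of at least 10 (points; open points had no read in the high-screen control, and their height depends on the pseudocount), with the median of each gene in red. The grey band and line are the interquartile range and median of all gene-targeting sgRNAs (-0.92 to 0.84 and -0.04), dotted lines mark -1 and 1, and 8 of 9 AASDHPPT sgRNAs lie at -1 or less. PDSS1 sgRNA 9 (6.15) and COQ3 sgRNA 10 (4.39), drawn filled, had no read in the low-screen control. Their height depends on the pseudocount too.

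AASDHPPT (ENSG00000149313, chromosome 11 at 105946228 to 105969426 in GRCh37) was lower in the high-screen control over nearly all its sgRNAs. The median of its log2 ratios was -2.36, with an interquartile range of -5.44 to -2.17 and 8 of 9 sgRNAs at -1 or less. By this median AASDHPPT ranked 20 from the lowest of 19816 genes. The lower end of the range fell on sgRNA 1, which had no read in the high-screen control, so it depends on the pseudocount. The 10 sgRNAs had 0, 19, 9, 87, 0, 10, 0, 0, 82 and 39 reads in the high-screen control, against 185, 400, 35, 268, 130, 242, 750, 454, 745 and 783 reads in the low-screen control, in the order of sgRNA 1 to 10. The 4 sgRNAs absent from the high-screen control were between at least 9.93-fold (sgRNA 5) and at least 57.3-fold (sgRNA 7) lower there. Only sgRNA 3, which missed the minimum count, and sgRNA 4 did not have a negative ratio (0.15 and 0.50). The summed reads of AASDHPPT were 3.72-fold lower in the high-screen control. Counting error on these sums is small beside that fold, as the intervals above show. It leaves out the spread between pools, which 1 library per pool cannot measure. Between these pools 24.7% of safe-targeting sgRNAs also lay at -1 or less.

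Of the enzymes that make the tail, neither subunit of the synthase was called, although each was called lower under 1 other setting. PDSS1 was at -1.27 when the minimum count was set on the low-screen control alone, a setting added after seeing the data. That setting drops sgRNAs with too few reads in that pool, PDSS1 sgRNA 9 below among them. Under it 6.32% of all genes were called lower and 1.36% higher, against 4.29% and 3.42% as reported. PDSS2 was at -1.04 when the mean of its log2 ratios was taken, where 5.52% of all genes were called lower and 8.41% higher. PDSS1 (ENSG00000148459), the catalytic subunit on chromosome 10 at 26986630 to 27035727, had 20.4 CPM in the high-screen control against 21.7 CPM in the low-screen control. Its median log2 ratio was -0.19 over 6 sgRNAs, which ran from -5.43 (sgRNA 5) to 6.15 (sgRNA 9). PDSS1 sgRNA 9 had 70 reads in the high-screen control against 0 in the low-screen control, so the spread within this gene went both ways. PDSS2 (ENSG00000164494), the partner subunit on chromosome 6 at 107473766 to 107780768, had 27.5 CPM in the high-screen control against 35.6 CPM in the low-screen control. Its median was 0.33 over 7 sgRNAs, with 3 at -1 or less, among them sgRNA 1 with 0 reads in the high-screen control against 405 in the low-screen control.

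COQ2 (ENSG00000173085, chromosome 4 at 84182689 to 84206067), which joins the tail to the ring, was called lower by its median but not by its sum. The median was -1.09 over 8 sgRNAs, with 4 at -1 or less and 2 at 1 or more. Its 8 sgRNAs, numbers 1 to 6, 9 and 10, had 53, 6, 19, 148, 223, 27, 1 and 123 reads in the high-screen control, against 530, 391, 170, 490, 195, 427, 307 and 127 reads in the low-screen control. The 2 higher ones, sgRNA 5 (2.29) and sgRNA 10 (2.04), held much of the reads in the high-screen control, and the summed levels were alike at 26.6 CPM in the high-screen control against 26.8 CPM in the low-screen control.

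Among the methyltransferases of the ring, COQ5 was called lower and COQ3 was not. COQ5 (ENSG00000110871, chromosome 12 at 120941082 to 120972237), the C-methyltransferase, had a median of -1.69 (interquartile range -5.08 to 0.02), with 5 of 9 sgRNAs at -1 or less and 0 at 1 or more, and ranked 105 from the lowest. Its 10 sgRNAs had 152, 69, 0, 17, 0, 0, 147, 8, 70 and 0 reads in the high-screen control, against 652, 267, 70, 249, 247, 143, 411, 146, 348 and 322 reads in the low-screen control. The 10 sgRNAs thus fell into 4 with ratios between -0.19 and 0.64 and 6 that were at -1.69 or less. Of these 6, 4 had no read in the high-screen control, so their ratios and the lower end of the interquartile range depend on the pseudocount. Among those 4 was sgRNA 3, which missed the minimum count. The median moved to -0.08 when a scaled count of 30 was required, and summed reads were 1.41-fold lower. COQ3 (ENSG00000132423, chromosome 6 at 99817277 to 99842071), the O-methyltransferase, had 24.5 CPM in the high-screen control against 27.3 CPM in the low-screen control. Its median was -0.64 over 9 sgRNAs, with 4 at -1 or less and 2 at 1 or more, and its sgRNA 1 alone held 46.0% of the reads of COQ3 in the high-screen control. Of the 2 higher ones, sgRNA 10 had 20 reads in the high-screen control against 0 in the low-screen control.

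Of the hydroxylases, COQ6 (ENSG00000119723, chromosome 14 at 74416629 to 74430373) had a median of -0.04 and COQ7 (ENSG00000167186, chromosome 16 at 19078936 to 19091417) one of 0.48, over 10 sgRNAs each. COQ6 had 42.0 CPM in the high-screen control against 57.0 CPM in the low-screen control. Its lowest sgRNA was number 4, with 3 reads in the high-screen control against 666 in the low-screen control, and 3 of its 10 sgRNAs were at -1 or less. COQ7 had 41.1 CPM in the high-screen control against 31.4 CPM in the low-screen control. It combined 4 sgRNAs at 1 or more with 3 at -1 or less, of which sgRNA 4 and sgRNA 5 had no read in the high-screen control and 116 and 268 reads in the low-screen control.

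The remaining CoQ proteins have no settled textbook reaction of their own. COQ4 (ENSG00000167113, chromosome 9 at 131084823 to 131096351), which the assembly of COQ proteins needs, had 18.9 CPM in the high-screen control against 27.9 CPM in the low-screen control. Its median was -0.44 over 9 sgRNAs, with 3 at -1 or less and 0 at 1 or more. COQ9 (ENSG00000088682, chromosome 16 at 57481337 to 57495182), a lipid-binding partner of COQ7, had 55.98 CPM in the high-screen control against 44.2 CPM in the low-screen control. It was the member with the narrowest spread, with a median of 0.42, an SD over sgRNAs of 0.75 and 0 of 7 sgRNAs at -1 or less. The SD of the other members ran from 1.33 (COQ4) to 3.8 (PDSS1). Several of these, PDSS1 among them, include sgRNAs with no read in 1 pool, whose ratios depend on the pseudocount. COQ2 and COQ6, with reads for every sgRNA in both pools, had SDs of 2.6 and 2.28. All 10 genes are annotated as protein coding, and the files name the target gene but not the cut site.

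Other genes around the pathway were taken from lists that were also set with earlier results known, so their counts are descriptions too. Beside all of these counts, 4.29% of the 19816 genes tested were called lower and 3.42% higher. Of 7 further CoQ genes 0 were called lower and 1 higher in the high-screen control. COQ10B, which like COQ10A binds CoQ, had a median of 1.24 over 7 sgRNAs, and COQ10A one of -0.11. The kinase-like COQ8A and COQ8B, listed under the older symbols ADCK3 and ADCK4, had medians of 0.03 and -0.40. FDXR, the mitochondrial ferredoxin reductase, had a median of -0.96, the ferredoxin FDX2 0.90 over 3 sgRNAs, and HPDL, which acts in the supply of the ring, -0.19. Of 11 CoQ-linked dehydrogenases tested, 0 were called in either direction.

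In the mevalonate and prenyl list 3 of 13 genes were called lower and 0 higher, beside 4.29% and 3.42% of all genes. These were GGPS1 (-1.54, with 8 of 10 sgRNAs at -1 or less), DHDDS (-1.12) and IDI1 (-1.09), enzymes that make geranylgeranyl diphosphate, dolichol chains and the isoprenoid unit. In the list of coenzyme A synthesis and transport 2 of 10 were called lower and 0 higher, namely PPCDC (-1.64) and COASY (-1.07), both enzymes of coenzyme A synthesis, from which AASDHPPT takes the phosphopantetheine arm. Of 6 carriers of that arm and their relatives, NDUFAB1 and FASN included, 0 were called. Of 9 genes of mitochondrial fatty acid and lipoate synthesis 1 was called lower, the reductase MECR (-1.03).

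Complex I, which reduces CoQ, had 6 of 45 genes called lower and 3 higher, with a median of -0.33. Complexes III and IV with the assembly factors of complex II had 1 of 43 lower and 3 higher (median 0.13), and the mitochondrial ribosome 4 of 73 lower and 6 higher (median -0.01). The members stood at 3 of 10 lower and 0 higher, and all genes tested at 4.29% lower and 3.42% higher. With 1 library per pool the difference between lists could not be tested.

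**Figure D3:**
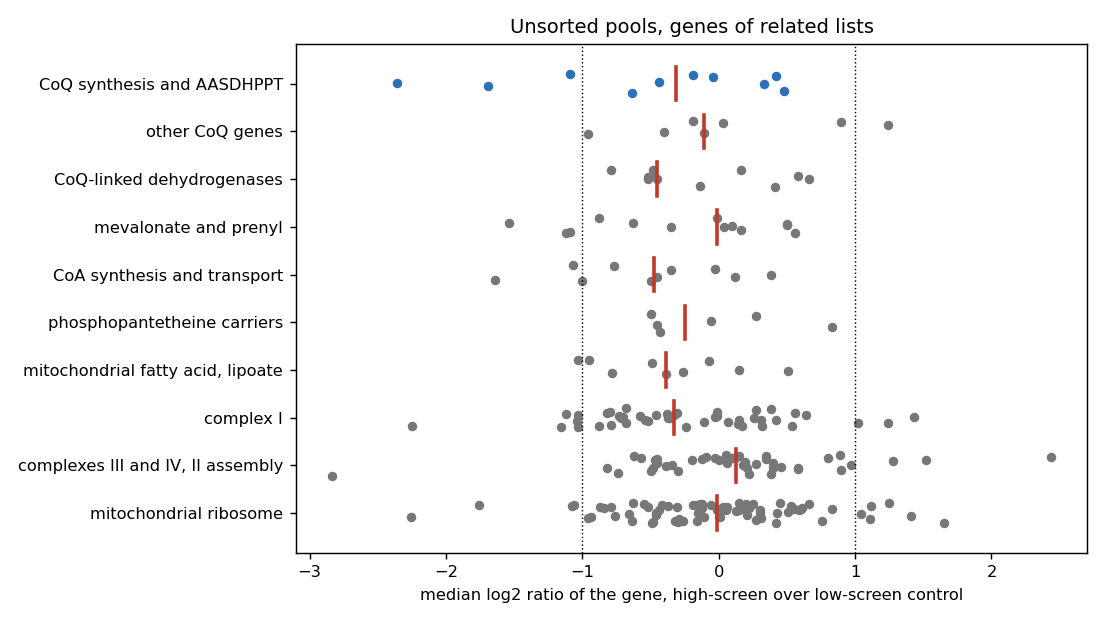
Median log2 ratio of each gene, high-screen control over low-screen control, for the 10 members (blue, top) and for genes of related lists (grey), with the median of each list in red and dotted lines at -1 and 1. AASDHPPT (-2.36) and COQ5 (-1.69) lie at the low end of the members, whose median was -0.32.

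The HLA-B high sorted library was then set against the high-screen control, the comparison that asks which sgRNAs were enriched among cells with high HLA-B. It shares the high-screen control with the comparison above. Of the 10 members 10 were called lower and 0 higher, which follows the background, since 90.9% of 19802 genes were called lower and 0.353% higher. With ratios centred on the safe-targeting sgRNAs, 54.9% of all calls were higher, against 0.387% without it, and 4 of 10 members were called lower beside 27.2% of all genes. Rank among all genes does not depend on that scaling. By rank the members were spread, with 4.74% (COQ9) to 76.9% (COQ2) of genes lower, and 7 of 10 lay below the median of all genes. The median over the members was -4.75, against -4.31 over all genes.

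The control held 10 reads or more for 68 member sgRNAs. Of these 56 (82.4%) were at -1 or less and 6 (8.82%) at 1 or more, against 70.8% and 12.6% of gene-targeting and 71.5% and 11.7% of safe-targeting sgRNAs. No read was found in the sorted library for 41 of them (60.3%), against 48.5% of gene-targeting sgRNAs. The members had lower counts before the sort, with a median of 49.0 reads per sgRNA in the high-screen control against 86.0 for all gene-targeting sgRNAs, and the part of this in their absence from the sort was not tested. Of the 15 member sgRNAs with no read in the high-screen control, 14 also had none in the sorted library, as did 80.5% of the 4311 gene-targeting sgRNAs absent from that control. The other was COQ5 sgRNA 6, with 39 reads in the sorted library.

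**Figure D4:**
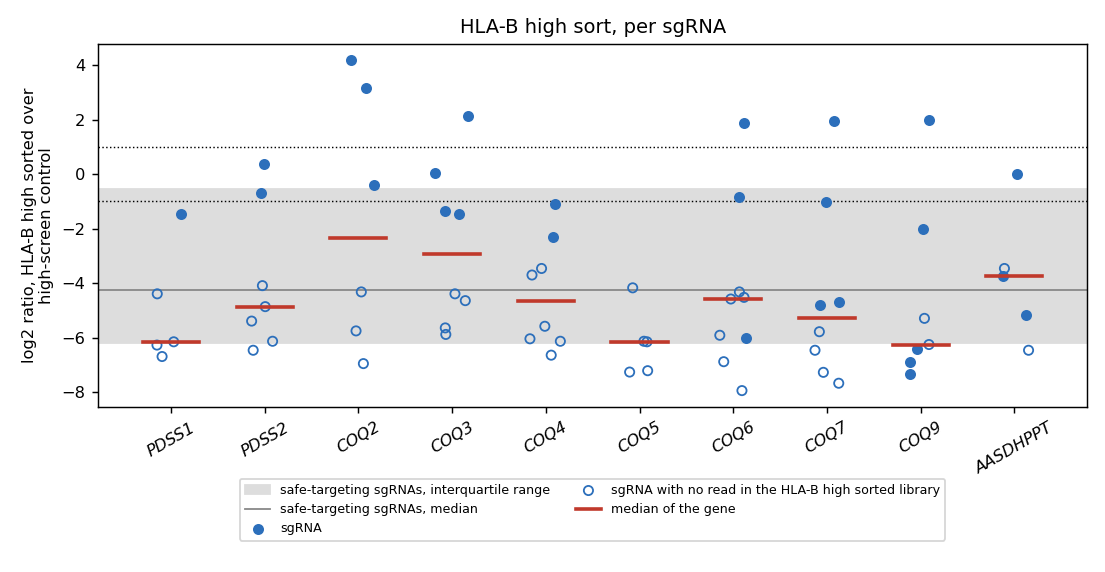
Log2 ratio of the HLA-B high sorted library to the high-screen control for each member sgRNA that had 10 or more control reads (points; open points had no sorted read, and their height depends on the pseudocount and the control count), with the median of each gene in red. The grey band and line are the interquartile range and median of safe-targeting sgRNAs (-6.19 to -0.55 and -4.25); 6 sgRNAs of COQ2, COQ3, COQ6, COQ7 and COQ9 lie at 1 or more.

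COQ2 was the member with the most reads in the sort. Its sgRNAs held 89.5 CPM in the sorted library (86.4 to 92.8) and 26.6 CPM in the high-screen control (24.5 to 28.8), 3.37-fold more in the sort, while its median log2 ratio was -2.36. The 8 sgRNAs had 0, 37, 0, 2012, 256, 763, 0 and 0 reads in the sorted library, against 53, 6, 19, 148, 223, 27, 1 and 123 reads in the high-screen control. The excess of the sum came from sgRNA 4 and sgRNA 6, at log2 ratios of 3.15 and 4.17, and sgRNA 4 alone held 65.6% of the sorted reads of COQ2. The 4 sgRNAs without sorted reads included sgRNA 10, which was at least 62.3-fold lower in the sort. The gene's sgRNAs therefore went both ways.

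Sorted reads of most genes in the library came mainly from 1 sgRNA. A single sgRNA held over 50% of them in 9 of the 10 members and in 69.6% of the 20015 genes with sorted reads, the exception among the members being COQ3, where sgRNA 1 held 37.3%. COQ9 had 40.2 CPM in the sorted library and 55.98 CPM in the high-screen control, and sgRNA 8 held 90.3% of those sorted reads. Its 7 sgRNAs, numbers 1, 2 and 4 to 8, had 130, 1, 0, 1, 1, 0 and 1245 reads in the sorted library, against 345, 140, 38, 265, 195, 75 and 205 reads in the high-screen control. Apart from sgRNA 8 (1.99) the COQ9 sgRNAs ran from -7.33 to -2.0, and the median was -6.25. COQ6 had 30.6 CPM in the sorted library and 42.0 CPM in the high-screen control, with sgRNA 2 at 1.88 and 7 of 9 sgRNAs at -1 or less. COQ7 had 21.4 CPM in the sorted library and 41.1 CPM in the high-screen control, with sgRNA 7 at 1.96 and 7 of 8 sgRNAs at -1 or less.

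COQ4, COQ5, PDSS1, AASDHPPT and PDSS2 had no sgRNA at 1 or more among those that passed the minimum. COQ4 had 1.63 CPM in the sorted library and 18.9 CPM in the high-screen control, with 8 of 8 sgRNAs at -1 or less and a median of -4.64. COQ5 had 1.14 CPM in the sorted library and 20.5 CPM in the high-screen control, with 5 of 5 at -1 or less and a median of -6.15. PDSS1 had 3.33 CPM in the sorted library and 20.4 CPM in the high-screen control, with 5 of 5 at -1 or less and a median of -6.15. AASDHPPT had 0.992 CPM in the sorted library and 10.9 CPM in the high-screen control, with 4 of 5 at -1 or less. Its median of -3.75 stood above that of all genes (60.0% of genes lower), and its few sgRNAs left above the minimum had between 10 and 87 reads in the high-screen control. The median of AASDHPPT fell on its sgRNA 10, with 3 sorted reads against 39 control reads. Its sgRNA 6, with 10 control reads and 0 sorted reads, could be bounded only as at least 5.06-fold lower. The part of depth before the sort in the rank of AASDHPPT was not tested.

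PDSS2 and COQ3 kept more of their reads in the sort than COQ4, COQ5, PDSS1 and AASDHPPT. PDSS2 had 17.9 CPM in the sorted library and 27.5 CPM in the high-screen control. Reads of PDSS2 in the sort came from sgRNA 3 (493 sorted reads against 253 control reads) and sgRNA 7 (119 against 126 reads), and 5 of 7 sgRNAs had none. COQ3 had 11.0 CPM in the sorted library and 24.5 CPM in the high-screen control, with 6 of 8 sgRNAs at -1 or less and sgRNA 4 at 2.15. The medians in this comparison often fall on sgRNAs with no sorted read. With such sgRNAs set at the limit of 3 reads, the members' medians ran from -5.25 (COQ9) to -1.83 (COQ2), each still at -1 or less. Of the further CoQ genes 7 of 7 were called lower and 0 higher in the sort, and HPDL had more reads in the sorted library (108.3 CPM) than in the high-screen control (58.4 CPM) beside a median of -2.26. In complex I 40 of 45 genes were called lower and 0 higher, and in the mitochondrial ribosome 69 of 73 lower and 1 higher. These list counts follow the background, since 90.9% of all genes tested were called lower and 0.353% higher.

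Against the low-screen control, the other unsorted pool, the calls were the same, as for most genes, but ranks moved in both directions. The share of genes lower fell from 60.0% to 19.7% for AASDHPPT and from 43.7% to 12.4% for COQ6. For COQ9 it rose from 4.74% to 21.8%. All 10 members were called lower and 0 higher, beside 91.6% and 0.425% of 19745 genes. The sorted library is common to both comparisons, so they are not independent. Per sgRNA, 73 of 87 (83.9%) were at -1 or less, against 71.4% of gene-targeting sgRNAs, and 58 (66.7%) had no sorted read, against 49.2%. COQ2 had the highest median of the members (-3.68, with 66.7% of genes lower) and COQ6 the lowest (-6.54, with 12.4% of genes lower). AASDHPPT had a median of -6.25 (19.7% of genes lower) with 10 of 10 sgRNAs at -1 or less, against -3.75 when the high-screen control was the reference. Its summed reads were 40.9-fold lower in the sorted library than in the low-screen control and 11.0-fold lower than in the high-screen control. Of the 6 member sgRNAs at 1 or more against the high-screen control, 5 were also at 1 or more against the low-screen control, and COQ3 sgRNA 4 was at 0.85. With sgRNAs absent from a library set at 3 reads, the members' medians ran from -5.75 (COQ6) to -2.87 (COQ2).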

How the data were processed

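The deposited files give, for 1 library per group, the read count of each sgRNA, not normalized. The authors trimmed reads with fastx clipper or cutadapt, mapped them with Bowtie2 to the sgRNA library, removed multi-aligning reads and counted the rest, as the methods state; versions are not given in the sources used here, and no genome build entered the counts. Unmatched reads were dropped (21.9% for the sort, 20.6% for the high-screen pool and 12.1% for the low-screen pool). An sgRNA not listed in a library was given 0.

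Both libraries of a comparison were scaled to the smaller matched total and log2 ratios taken with a pseudocount of 1. An sgRNA entered at a scaled count of at least 10, in the mean of both pools or, for the sort, in its control. A gene entered with at least 3 such sgRNAs, and its value was their median. No test was run, since there was 1 library per group. Levels carry exact Clopper-Pearson 95% intervals. The calculation was tested on simulated data for the comparison of the unsorted pools only, with the same shift on all sgRNAs of a gene. The sparse sorted library was not simulated. The members and gene lists were chosen with earlier results of these data known. All 10 members were named, and so were 7 further CoQ genes. From the other pathway lists at most 3 genes per direction past a pool median of -1 or 1, or at 1 or more in the sort against the high-screen control, were named. Positions come from GENCODE release 44 lifted to GRCh37, matched by identifier. Tools were Python 3.11.15, numpy 2.4.6, pandas 2.3.3, scipy 1.17.1 and matplotlib 3.10.9.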

Additional observations from a re-analysis of the deposited data

How the results depend on the processing

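The settings tried were 8 alternatives for each comparison and 1 for the pools that was chosen after seeing the data. Between the unsorted pools, the count of members called lower (3) became 1 with summed scaled counts and 1 with the lowest sgRNA of each gene left out, and was 2 to 4 otherwise. The share of all genes called lower (4.29% as reported) moved as well. It was 1.32% with summed counts, 1.99% without the lowest sgRNA and 2.51% to 6.32% otherwise. AASDHPPT was called lower under all of these settings (-3.54 to -1.89). COQ5 was not called with a minimum of 30 (-0.08), with summed counts (-0.50) or without its lowest sgRNA (-0.94), and COQ2 not with safe-targeting centring (-0.93), summed counts (-0.01), a pseudocount of 5 or without its lowest sgRNA (-1.0 in both, just short of the threshold). The calls gained were PDSS1 with the minimum set on the low-screen control only (-1.27), the added setting, and PDSS2 with the mean of log2 ratios (-1.04). The added setting leaves out sgRNAs absent from the low-screen control. Signs also turned without a call for PDSS1 (0.31 with no minimum), PDSS2 (-0.38 with a minimum of 30, -0.37 with summed counts), COQ7 (-0.64 with the mean) and COQ6 (0.09 with a minimum of 30), among other settings. In the sort against the high-screen control the count of members called lower (10) became 4 with safe-targeting centring, 3 with gene-targeting centring and 5 with summed counts, beside 27.2%, 23.4% and 37.2% of all genes called lower there (90.9% as reported). It was 9 with no minimum count (COQ2 at -0.70) and 9 without the lowest sgRNA of each gene (COQ2 at -0.40), beside 90.5% and 83.6% of all genes. Against the low-screen control the count became 6, 6 and 5 with the centrings and summed counts, beside 30.3%, 27.9% and 37.8% (91.6% as reported). The cause was not tested; both centrings subtract a strongly negative median by construction. Medians that changed sign against the high-screen control were COQ2 (1.89 with safe-targeting centring, 2.03 with gene-targeting centring, 1.75 with summed counts), COQ3 (1.33 and 1.47 with the centrings) and AASDHPPT (0.50 and 0.64 with the centrings). Against the low-screen control they were COQ2 (1.16, 1.24 and 1.74 under the same 3 settings) and COQ3 (0.62 and 0.71 with the centrings). No paired analysis was possible because each group held 1 library, and no replicate could be left out.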
